A study of Mus musculus with 47 samples.

Results

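The neural crest specifiers and glial crest genes are 8 genes by which the early crest and its glial branch are known: the transcription factors Sox10, Foxd3, Sox8, Snai1, Snai2, Twist1 and Ets1 and the receptor Erbb3. They were taken by gene symbol from a table of read counts for 38215 genes, each symbol matched 1 gene, and all 8 were among the 20560 genes that passed the filter on low counts. The table held 47 RNA-seq libraries of mouse cranial neural crest cells, dissected, dissociated and sorted by fluorescence, in 16 groups. Of the E10.5 groups, 4 were Ezh2cKO (conditional knockout of Ezh2), with 3 libraries each of FNP (frontonasal process), Mx (maxillary), Md (mandibular) and PA2 (second pharyngeal arch), and 1 was HoxA2OE (overexpression of Hoxa2) in Md with 3 libraries. Wild-type E10.5 FNP, Md and PA2 had 3 libraries each and Mx had 2. At E11.5, Hoxa2TempMut (a temporal knockout of Hoxa2) and its Control were PA2 groups of 3, beside wild-type FNP, Mx, Md and PA2 of 3 each. The remaining 3 libraries were wild-type crest progenitors of E8.5. The labels name neither the Cre lines, the timing of Hoxa2 deletion, what Control carries, the fluorescent label of the sort nor the number of embryos behind a library. They do not say that replicates came from separate embryos or litters, so p-values measure only the spread between these samples, which may be technical.

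Neural crest cells form at the border of the neural plate, lose their epithelial character and migrate into the head, where they give rise to cartilage, bone and connective tissue as well as to glia, neurons and pigment cells. Snai1 and Snai2 encode zinc-finger repressors and Twist1 a basic helix-loop-helix factor of that epithelial-to-mesenchymal transition, Ets1 encodes a factor of cranial crest delamination, and Foxd3 and the SoxE factors Sox8 and Sox10 act in crest specification. In most cranial crest Sox10 and Foxd3 are known to be lost as cells enter the arches and become mesenchyme, while glial and melanocyte lineages retain Sox10, which is known to drive Erbb3, the receptor through which neuregulin supports Schwann cell precursors.

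The genes lie apart in the genome (GRCm38, coordinates from the deposited table). Sox10 (ENSMUSG00000033006) is at chr15:79154913-79164490 on the minus strand, Foxd3 (ENSMUSG00000067261) at chr4:99656299-99658671 on the plus strand and Erbb3 (ENSMUSG00000018166) at chr10:128567523-128589652 on the minus strand. Snai1 (ENSMUSG00000042821) is at chr2:167538195-167542814, Snai2 (ENSMUSG00000022676) at chr16:14705852-14709395, Twist1 (ENSMUSG00000035799) at chr12:33957671-33959817 and Ets1 (ENSMUSG00000032035) at chr9:32696042-32757820, all on the plus strand. Sox8 (ENSMUSG00000024176) is at chr17:25565892-25570686 on the minus strand. Because counting without strand could mix a gene with its neighbours, overlaps and shared sequence were checked. Foxd3 was the only one of the 8 that overlapped another gene of the table, a microRNA of 89 bases that reached at most 0.0647 CPM. Of the 50-base windows in their transcripts, 8.99% in Sox8, 2.59% in Foxd3 and 0.964% in Snai2 also occurred in another transcript, and none did in the other 5.

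Upstream sequence (250 bases before the start, RefSeq, GRCm38.p6) was at hand for 4 of the 8: Snai1 (chr2:167537945-167538194, plus strand), Foxd3 (chr4:99656049-99656298, plus), Twist1 (chr12:33957421-33957670, plus) and Sox8 (chr17:25570687-25570936, minus). These 4 moved in different ways between stages, and their sequences are shown because Snai and Twist proteins bind the E-box CANNTG. Capitals mark the E-boxes found on either strand.
Snai1: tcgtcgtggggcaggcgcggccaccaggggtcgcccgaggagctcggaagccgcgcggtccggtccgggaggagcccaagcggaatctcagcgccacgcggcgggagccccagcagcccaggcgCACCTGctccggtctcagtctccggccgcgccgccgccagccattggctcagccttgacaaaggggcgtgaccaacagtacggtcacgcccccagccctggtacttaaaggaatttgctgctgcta
Foxd3: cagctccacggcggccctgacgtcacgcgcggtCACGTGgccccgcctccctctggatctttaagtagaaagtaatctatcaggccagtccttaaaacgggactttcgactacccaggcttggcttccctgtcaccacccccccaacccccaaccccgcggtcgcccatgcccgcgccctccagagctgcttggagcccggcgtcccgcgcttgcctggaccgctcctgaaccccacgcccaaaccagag
Twist1: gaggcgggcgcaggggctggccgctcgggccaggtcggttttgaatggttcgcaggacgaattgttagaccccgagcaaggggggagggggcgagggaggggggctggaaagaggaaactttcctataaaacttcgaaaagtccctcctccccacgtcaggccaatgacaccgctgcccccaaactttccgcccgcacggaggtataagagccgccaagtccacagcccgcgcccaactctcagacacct
Sox8: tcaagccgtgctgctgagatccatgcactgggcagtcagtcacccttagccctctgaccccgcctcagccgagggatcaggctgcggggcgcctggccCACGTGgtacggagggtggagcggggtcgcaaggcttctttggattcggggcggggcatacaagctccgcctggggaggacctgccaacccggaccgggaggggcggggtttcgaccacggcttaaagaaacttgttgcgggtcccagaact

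The Snai1 window held 1 E-box, CACCTG, which starts 126 bases before the start and is the form that Snai proteins are known to prefer. The Foxd3 and Sox8 windows each held 1 E-box of the form CACGTG, at 217 and 152 bases before the start. The Twist1 window held none. Of 32851 upstream windows of the same length, 66.2% held at least 1 CANNTG and 17.2% held CACCTG on either strand, so the matches are a description only. All 4 windows were rich in CpG, with 27 CpG in Snai1, 21 in Foxd3 and 18 each in Twist1 and Sox8, against a median of 6 over all windows. The Snai1 window also held 1 ACAAAG, the letters of a Sox site, found on either strand in 16.5% of windows.

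Libraries held 18.8 to 49.8 M counts (M for 1e6) with a median of 30.6 M, and levels are given as CPM (counts per 1e6 of the TMM-scaled total). Ezh2 lay at 113 to 157 CPM in the Ezh2cKO libraries, against 350.4 to 405 CPM in wild-type E10.5 libraries. Hoxa2 lay at 92.8 to 124 CPM in HoxA2OE and 0.248 to 0.297 CPM in wild-type Md, and at 176 to 195 CPM in Hoxa2TempMut and 268 to 269 CPM in Control. Wild-type E11.5 PA2 held 183 to 199 CPM of Hoxa2, so the libraries labelled Hoxa2TempMut were lower in it than Control but overlapped wild type. A list of 10 cranial mesenchyme markers (among them Prrx1, Pdgfra and Dlx2) summed to 463 to 572 CPM at E8.5, 1892 to 2550.5 CPM in wild-type E10.5 libraries and 2974 to 4202 CPM in wild-type E11.5 libraries, with no marker at 0. HoxA2OE libraries stood apart in composition, with TMM factors of 0.514 to 0.775 against 1.00 to 1.08 in wild-type Md and mitochondrial counts of 28.5% to 45.9% against 19.9% to 24.0%. The wild-type Mx libraries of E10.5 also stood apart, by 12 neuron markers (such as Tubb3, Stmn2 and Isl1) that summed to 158 to 185 CPM there and 10.8 to 14.9 CPM in the other 3 wild-type subpopulations of that stage. Single libraries stood apart from both others of their group by the chi-square per degree of freedom of their counts over genes: HoxA2OE replicate 1 (316 and 331, against 12.2 between the others), E8.5 replicate 1 (118 and 128, against 6.67), wild-type E11.5 FNP replicate 3 (71.3 and 65.3, against 12.1) and wild-type E10.5 FNP replicate 1 (42.3 and 44.4, against 6.19). Wild-type FNP of E10.5 stood apart as a group, with TMM factors of 0.889 to 0.919, against 0.996 to 1.08 in the other 3 subpopulations. Its mitochondrial counts were 28.2% to 33.6%, against 19.9% to 24.0%. Its erythroid markers summed to 25.5 to 51.4 CPM, against 176 to 424 CPM. Mitochondrial counts were 24.9% to 30.96% in Ezh2cKO Mx, Md and PA2, above the same 3 in wild type. The part of these differences in the comparisons was not tested. In bulk RNA of this kind, fewer cells of a type and less RNA per cell cannot be told apart.

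Across the 16 groups all of the 8 genes but Snai1 had their highest or lowest group mean at E8.5. Sox10, Foxd3, Erbb3 and Ets1 had their highest group mean at E8.5, and Sox8, Snai2 and Twist1 had their lowest there. Snai1 had both ends at E11.5, with 26.3 CPM in wild-type FNP and 3.27 CPM in PA2 Control. Foxd3 was lowest in wild-type E11.5 FNP, where 3 counts were found over 3 libraries, so that its range has no firm low end and is not ranked here. Of the other 7 genes Sox10 covered the widest range, with 0.130 ± 0.117 CPM in HoxA2OE at the low end and 34.9 ± 5.85 CPM at E8.5 at the high end (SD, n = 3 each), a ratio of 269. Ets1 covered the narrowest, with 23.4 ± 0.770 CPM in wild-type Md at E10.5 and 102 ± 12.2 CPM at E8.5 (SD, n = 3 each), a ratio of 4.34. The ratio of highest to lowest group mean was 35.7 for Erbb3, 21.1 for Sox8, 9.35 for Twist1, 8.42 for Snai2 and 8.03 for Snai1.

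**Figure D1:**
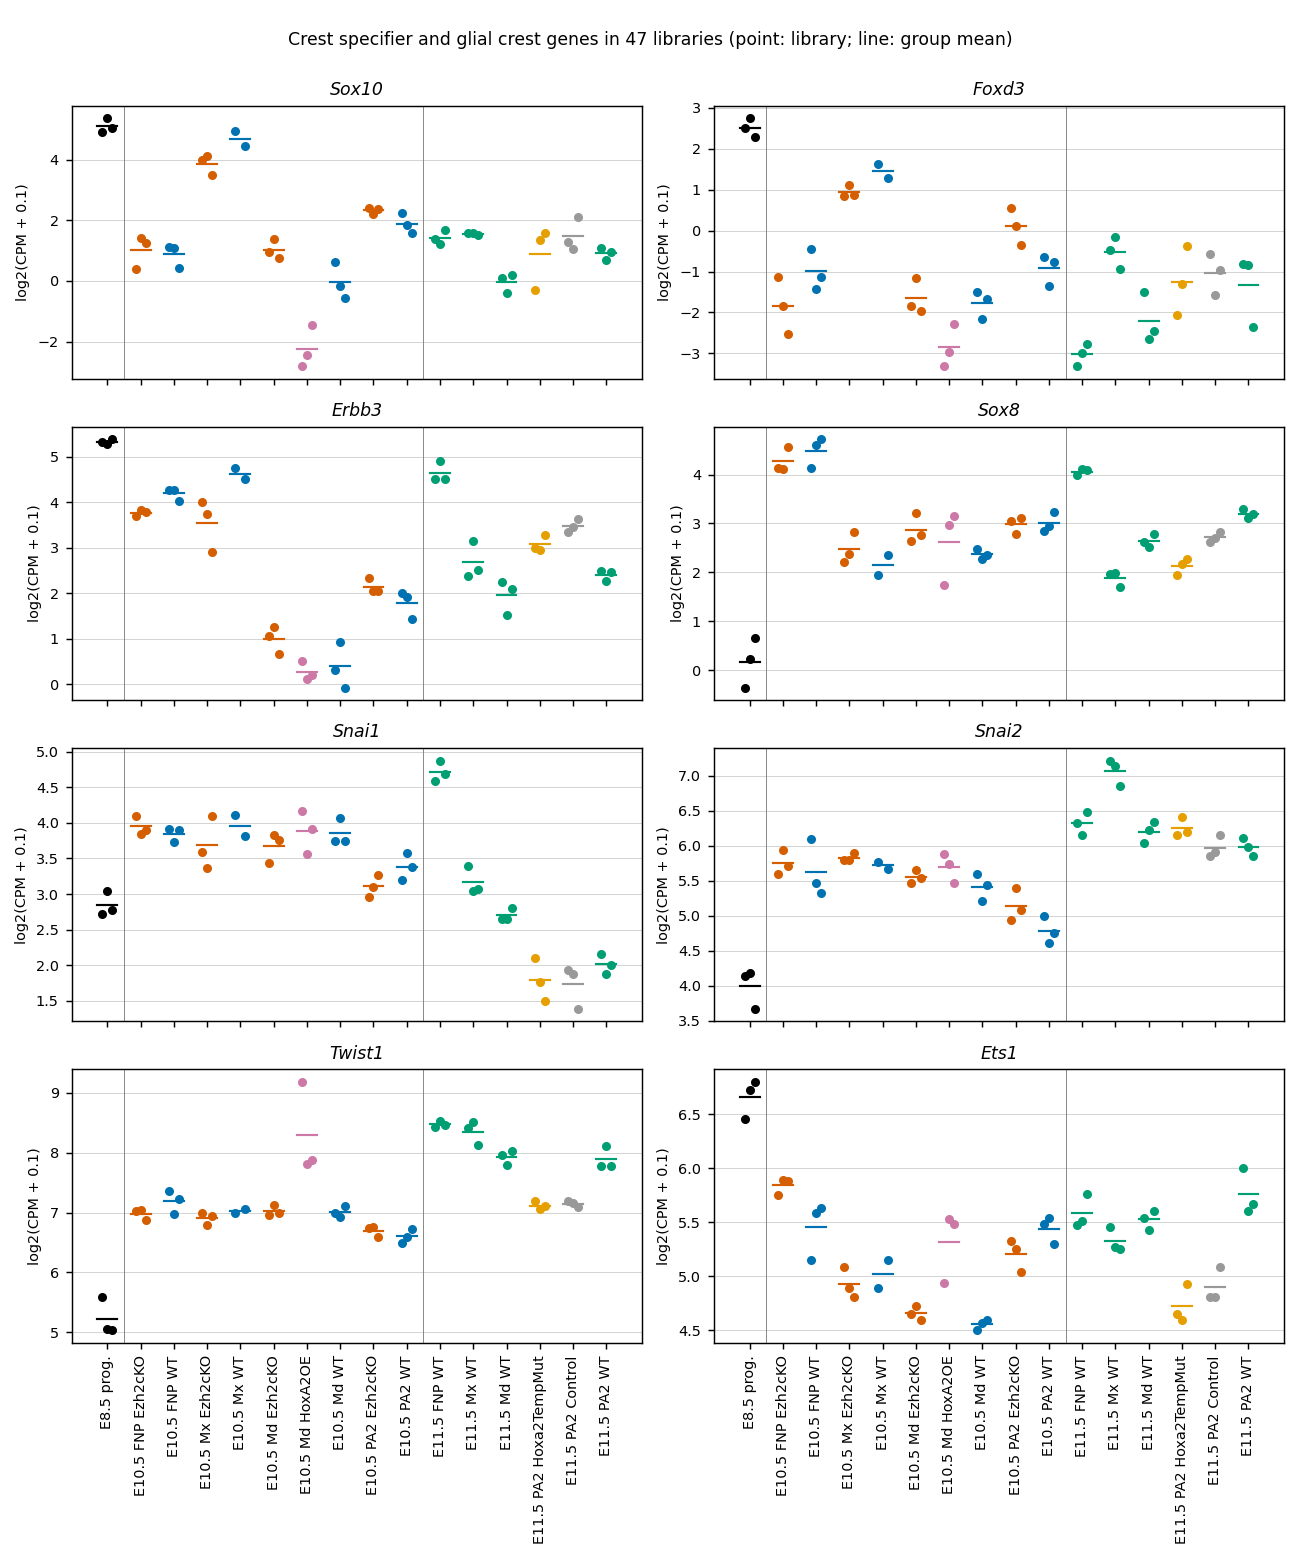
Level of each of the 8 genes in 47 libraries, as log2(CPM + 0.1) on the vertical axis, with groups by stage on the horizontal axis, a point for each library and a line for the group mean. Sox10, Foxd3 and Erbb3 are highest in the E8.5 progenitors and next highest in E10.5 Mx libraries or, for Erbb3, in E11.5 FNP and E10.5 Mx, while Twist1 and Snai2 are lowest at E8.5.

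With the groups of each gene in order of mean, most neighbours overlapped in their libraries. Of 15 neighbouring pairs, those that did not overlap numbered 3 for Sox10, 3 for Foxd3, 5 for Erbb3, 3 for Sox8, 2 for Snai1, 2 for Snai2, 4 for Twist1 and 2 for Ets1. For Sox10 the gaps lay between wild-type Mx and Ezh2cKO Mx of E10.5, between Ezh2cKO Mx and Ezh2cKO PA2, and between wild-type E11.5 Md and HoxA2OE. Per kilobase of exon, which allows genes to be set against each other, the E8.5 group means were 23.5 CPM for Twist1, 20.1 for Ets1, 12.9 for Sox10, 7.92 for Snai2, 6.65 for Erbb3, 4.39 for Snai1, 2.39 for Foxd3 and 0.345 for Sox8. In wild-type E11.5 FNP the same measure was 219.9 CPM for Twist1, 39.6 for Snai2, 16.2 for Snai1, 9.5 for Ets1, 5.33 for Sox8, 4.16 for Erbb3, 0.964 for Sox10 and 0.010 for Foxd3. Twist1 thus led at both stages in this measure, by little over Ets1 at E8.5 and by far in E11.5 FNP.

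The first comparison asked how crest that had reached the face and arches differed from its progenitors. Sox10, Foxd3, Erbb3 and Ets1 were lower in E10.5 wild type than at E8.5, and Sox8, Snai1, Snai2 and Twist1 were higher. All 8 passed the test (edgeR's quasi-likelihood test, adjusted p under 0.05), where 68.4% of the genes tested did, 32.1% higher and 36.3% lower. E10.5 stands here for the mean of the log2 levels of 4 subpopulations, and p-values are adjusted over all genes tested.

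Among the genes that fell, Sox10, the SoxE factor of crest and glia, lay between 0.584 and 30.8 CPM with a median of 2.10 in 11 E10.5 libraries, and at 30.3, 41.5 and 32.8 CPM in 3 E8.5 libraries. Only an Mx library reached the E8.5 range, and Sox10 fell by 3.28 ± 0.20 on the log2 scale (SE, adjusted p = 5.17e-18). Foxd3, a forkhead factor of early crest, lay between 0.124 and 3.0 CPM with a median of 0.358 at E10.5 and at 5.62, 6.62 and 4.78 CPM at E8.5. All E10.5 libraries were below those of E8.5, with a log2 fold change of -3.34 ± 0.26 (SE, adjusted p = 1.64e-14). Erbb3 lay between 0.849 and 26.8 CPM with a median of 3.94 at E10.5 and at 39.6, 38.9 and 41.5 CPM at E8.5. Its libraries did not overlap, and its log2 fold change was -2.58 ± 0.14 (SE, adjusted p = 2.47e-19). Without Mx, the log2 fold changes were -4.24 for Sox10, -4.09 for Foxd3 and -3.21 for Erbb3. Ets1 averaged 36.2 ± 10.2 CPM at E10.5 (SD, n = 11) and 102 ± 12.2 CPM at E8.5 (SD, n = 3), where the libraries had 87.9, 106 and 111 CPM. Every E10.5 library was below every E8.5 library, and the log2 fold change was -1.55 ± 0.10 (SE, adjusted p = 1.55e-17).

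Among the genes that rose, Twist1 lay between 89.3 and 165 CPM with a median of 127 at E10.5 and at 48.2, 33.2 and 32.6 CPM at E8.5. Snai2 lay between 24.4 and 68.6 CPM with a median of 43.3 at E10.5 and at 17.5, 18.1 and 12.6 CPM at E8.5. Neither gene's stages overlapped, and the log2 fold changes were 1.71 ± 0.17 for Twist1 (SE, adjusted p = 7.71e-12) and 1.39 ± 0.14 for Snai2 (SE, adjusted p = 6.72e-12). Snai1 rose less, to 13.5 ± 2.45 CPM at E10.5 (SD, n = 11), against 6.47, 8.13 and 6.73 CPM at E8.5, a log2 fold change of 0.93 ± 0.14 (SE, adjusted p = 2.53e-07). Sox8, the SoxE relative of Sox10, moved against it: Sox8 averaged 10.54 ± 8.18 CPM at E10.5 (SD, n = 11) and 1.07 ± 0.394 CPM at E8.5 (SD, n = 3), a log2 fold change of 2.87 ± 0.22 (SE, adjusted p = 1.02e-14). No E10.5 library of Snai1 or Sox8 came down to the E8.5 range. Without E8.5 replicate 1, all 8 genes were still called in the same direction.

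Other genes of crest formation moved with these stages. Of 20 further genes of glial crest and Schwann cell precursors, 15 were lower and 3 higher at E10.5 than at E8.5, with a median log2 fold change of -0.95 against -0.03 over all genes. Sox2, a SoxB1 factor of neural progenitors and glial precursors, averaged 0.809 ± 1.10 CPM at E10.5 (SD, n = 11) and 58.0 ± 8.75 CPM at E8.5 (SD, n = 3). Pou3f1 and Ednrb were lower by 5.51 and 2.34 on the log2 scale (fold changes of -5.51 and -2.34). Of 18 regulators of the neural plate border and early crest, 11 were lower and 5 higher, with a median log2 fold change of -0.91. Zic1, a zinc-finger gene of the border, averaged 0.666 ± 1.14 CPM at E10.5 (SD, n = 11) and 35.6 ± 1.91 CPM at E8.5 (SD, n = 3), and was at 0 in both Mx libraries. Zic2 fell by 7.43 and Gbx2 by 3.69 on the log2 scale. Pax7 had a log2 fold change of -6.37 over the mean of log2 levels although its plain mean was 52.9 ± 91.4 CPM at E10.5 (SD, n = 11) and 33.4 ± 4.17 CPM at E8.5 (SD, n = 3). At E10.5 it averaged 194 ± 29.8 CPM in FNP (SD, n = 3) and 0.102 ± 0.171 CPM in the other 3 subpopulations (SD, n = 8). The 18 tested genes of mesenchymal transition split evenly, with 8 higher and 8 lower and a median log2 fold change of -0.03, and 3 of 6 melanoblast genes were lower and none higher. The E8.5 libraries also held more of other cells' markers than the E10.5 ones: 10 neural tube markers summed to 67.1 to 161 CPM in E10.5 wild type and 688 to 864 CPM at E8.5, with all 10 lower at E10.5 and En2 at 0 in all 4 wild-type groups of that stage. Epithelial markers (10, of which 9 were tested and all 9 were lower) summed to 3.11 to 19.1 CPM at E10.5 and 179 to 205 CPM at E8.5, with Krt14 at 0 in all 4 E10.5 groups. Endothelial markers, of which 9 of 10 were lower, summed to 83.9 to 131 CPM at E10.5 and 177 to 192 CPM at E8.5, and Ets1 is known to be active in endothelium. Erythroid markers summed to 25.5 to 424 CPM in E10.5 wild type and 615 to 991 CPM at E8.5. Cranial mesenchyme markers were lower at E8.5, as given above. The part of all these markers in the falls and rises of the 8 genes was not tested.

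The second comparison set each wild-type subpopulation of E10.5 against the mean of the other 3. Mx stood out by the glial genes, with Sox10, Foxd3 and Erbb3 higher there and Sox8 lower, so that 4 of 8 passed the test beside 7.28% of all genes. Sox10 had 30.8 and 21.8 CPM in Mx, against 2.10, 2.02 and 1.24 CPM in FNP, 1.44, 0.784 and 0.584 CPM in Md and 4.66, 3.48 and 2.90 CPM in PA2. Both Mx libraries were above all 9 others, with a log2 fold change of 3.84 ± 0.24 (SE, adjusted p = 2.36e-16). Foxd3 had 3.0 and 2.33 CPM in Mx and 0.354 ± 0.168 CPM in the other 3 (SD, n = 9), where the highest library had 0.633 CPM, and its log2 fold change was 3.01 ± 0.34 (SE, adjusted p = 8.09e-09). Erbb3 had 26.8 and 22.6 CPM in Mx, against 19.2, 19.2 and 16.3 CPM in FNP, 1.15, 1.82 and 0.849 CPM in Md and 3.94, 3.65 and 2.6 CPM in PA2. Mx was again above every other library, with FNP close below it, and the log2 fold change was 2.52 ± 0.17 (SE, adjusted p = 6.79e-15). Sox8 averaged 4.39 ± 0.909 CPM in Mx (SD, n = 2) and 11.9 ± 8.48 CPM in the other 3 (SD, n = 9), a log2 fold change of -1.15 ± 0.23 (SE, adjusted p = 0.000279), and this call was lost without Mx replicate 1, when the log2 fold change was -0.95 and the adjusted p 0.0663. Snai2 was above the other 3 in Mx by 0.42 without passing (adjusted p = 0.0605), and passed without a filter (0.0137) or without FNP replicate 1 (0.00439).

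The glial list moved the same way in Mx. Of its 20 genes, 12 were higher and 1 lower than in the other 3 subpopulations, with a median log2 fold change of 1.70 against 0.00 over all genes. Fabp7, a lipid-binding protein gene of glial precursors, averaged 34.6 ± 3.94 CPM in Mx (SD, n = 2) and 1.81 ± 0.314 CPM in the other 3 (SD, n = 9), a log2 fold change of 4.25 ± 0.18 (SE, adjusted p = 3.66e-21). Ednrb, an endothelin receptor gene of glial and pigment precursors, averaged 23.4 ± 0.662 CPM in Mx (SD, n = 2) and 2.2 ± 1.39 CPM in the others (SD, n = 9). Cdh19, a cadherin gene of Schwann cell precursors, averaged 5.22 ± 0.358 CPM in Mx (SD, n = 2) and 0.856 ± 0.798 CPM in the others (SD, n = 9), and Ngfr, the low-affinity neurotrophin receptor gene, 54.1 ± 5.00 CPM in Mx and 20.2 ± 13.3 CPM in the others. Transition genes scarcely took part, with 2 of 18 higher and none lower, and no melanoblast gene passed the test. Neuron markers moved with these genes: 10 of 12 were higher in Mx and none lower. None of the 12 was at 0 in Mx, whereas Neurog2 and Prph were at 0 in FNP, Md and PA2. The part of neurons in the Mx levels was not tested.

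**Figure D2:**
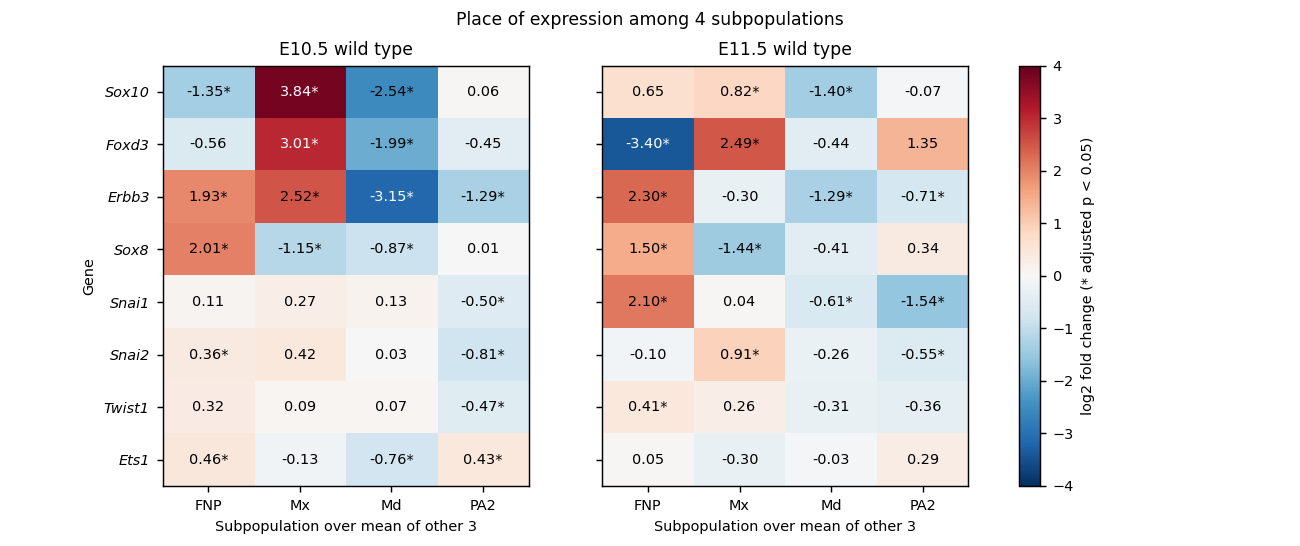
Log2 fold change of each gene in a subpopulation over the mean of the other 3, for wild type at E10.5 on the left and E11.5 on the right, with an asterisk at adjusted p under 0.05. At E10.5 Sox10 is 3.84 higher in Mx and 2.54 lower in Md, and at E11.5 the strongest red cells are Foxd3 in Mx and Erbb3 and Snai1 in FNP.

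**Figure D3:**
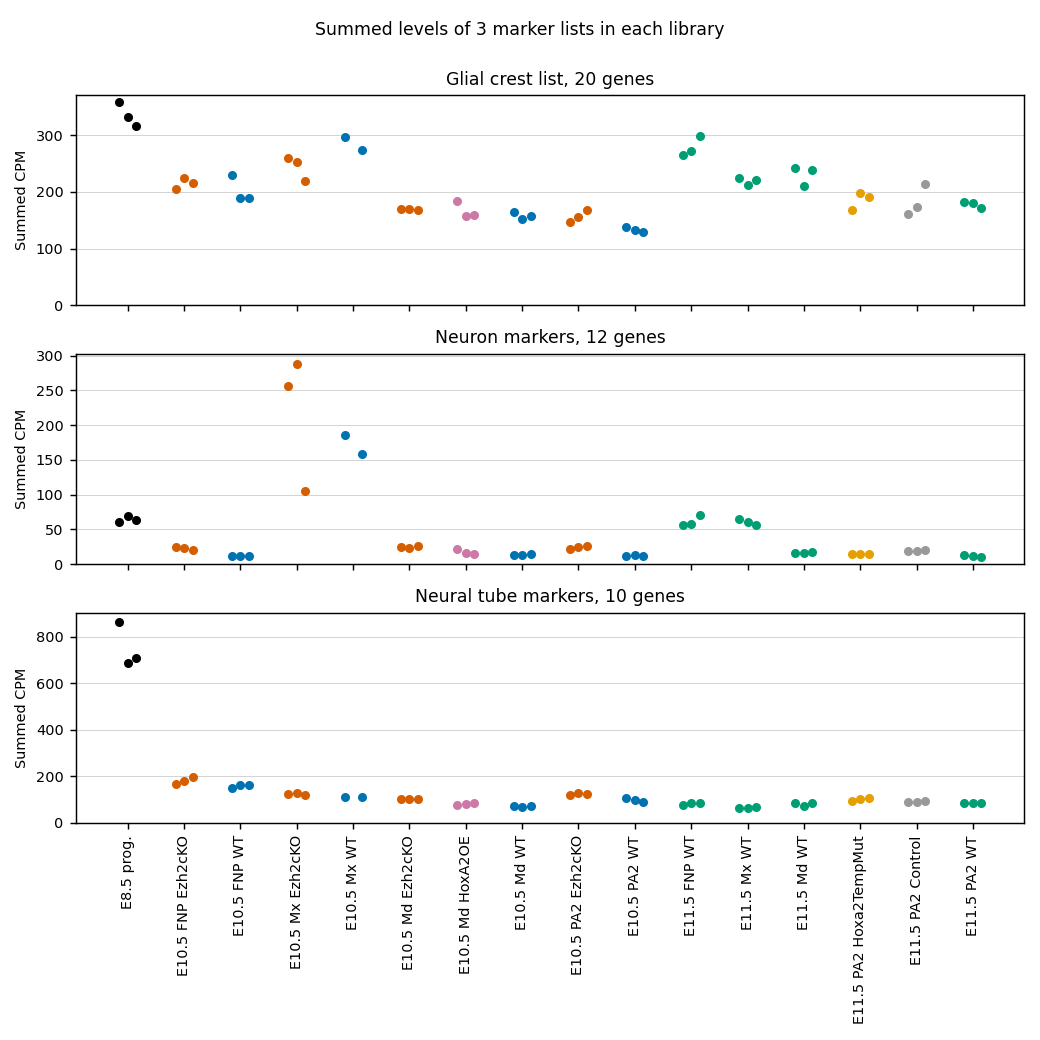
Summed CPM of 3 marker lists in each library, from 0, with groups on the horizontal axis. The glial list is highest at E8.5 and also high in E10.5 Mx and E11.5 FNP, whose wild-type libraries overlap. Neuron markers are high in E10.5 Mx libraries of both genotypes, and neural tube markers are high at E8.5.

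FNP at E10.5 was set apart by Sox8, while its high Erbb3 was shared with Mx, where every library lay higher. Sox8 had 17.6, 24.1 and 26.3 CPM in FNP, against 3.75 and 5.03 CPM in Mx, 5.48, 4.75 and 4.99 CPM in Md and 7.10, 7.59 and 9.29 CPM in PA2. FNP lay above every other library, with a log2 fold change of 2.01 ± 0.17 (SE, adjusted p = 5.78e-13). In all, 5 of 8 genes passed the test in FNP beside 27.6% of all genes. Erbb3 was higher by 1.93 ± 0.16 on the log2 scale (SE, adjusted p = 1.53e-12), or 3.11 without Mx, and Ets1 by 0.46 ± 0.11 (SE, adjusted p = 0.00109). Snai2 was called at 0.36 ± 0.13 (SE, adjusted p = 0.0295), but at 0.08 (adjusted p = 0.702) without FNP replicate 1. Sox10 was lower in FNP, with a log2 fold change of -1.35 ± 0.29 (SE, adjusted p = 0.000442), a difference that rested on Mx: it was -0.08 (adjusted p = 0.887) with Mx left out. Epithelial markers, which include cells known to express Erbb3, summed to 9.26 to 19.1 CPM in FNP and 3.11 to 5.54 CPM in the other 3, with 6 of 9 higher, none lower and Krt14 at 0. Their part in the Erbb3 level was not tested, nor was that of the unusual composition of the FNP libraries in the FNP differences.

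Md had the lowest Sox10, Foxd3 and Erbb3 of the wild-type groups at E10.5, while the list of 20 glial genes summed to 152 to 165 CPM in Md and to less, 129 to 138 CPM, in PA2. In Md 5 of 8 genes were lower than in the other 3 and none higher, beside 3.68% of all genes lower. Erbb3 was lower by a log2 fold change of -3.15 ± 0.23 (SE, adjusted p = 6.16e-14), Sox10 by -2.54 ± 0.33 (SE, adjusted p = 2.36e-07), Foxd3 by -1.99 ± 0.50 (SE, adjusted p = 0.00721), Sox8 by -0.87 ± 0.20 (SE, adjusted p = 0.0021) and Ets1 by -0.76 ± 0.12 (SE, adjusted p = 7.07e-06). With Mx left out, Sox10 stayed lower at -1.42 (adjusted p = 0.00516), while Foxd3 was at -1.11 (adjusted p = 0.245). The Foxd3 call was also lost without Md replicate 2 (adjusted p = 0.0902). PA2 had 4 of 8 genes lower beside 4.94% of all genes and 1 higher beside 5.59%. The 4 were the transition factors Snai2, Twist1 and Snai1 and the receptor Erbb3. Snai2 had 31.8, 24.4 and 26.9 CPM in PA2 and between 36.9 and 68.6 CPM in the other 3, so that PA2 lay below all of them (log2 fold change -0.81 ± 0.14, SE, adjusted p = 1.69e-05). Twist1 and Snai1 were lower by -0.47 ± 0.16 and -0.50 ± 0.14 (SE), with adjusted p of 0.0469 and 0.0163, and leaving out single libraries took these to 0.244 and 0.169. The Twist1 call was also lost with DESeq2 (adjusted p = 0.0592), RLE (0.0807) and upper-quartile scaling (0.0669). Ets1 was higher in PA2 by 0.43 ± 0.11 (SE, adjusted p = 0.00599, and 0.0668 without PA2 replicate 2). Erbb3 was lower by -1.29 ± 0.20 (SE, adjusted p = 5.58e-06), but at -0.51 (adjusted p = 0.136) with Mx left out. Sox10 in PA2 did not differ from the other 3 by the test, yet lay 1.5 higher on the log2 scale (adjusted p = 0.000251) than FNP and Md alone.

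At E11.5 the places changed. FNP held the highest Snai1 and Erbb3, Mx the highest Snai2 and Foxd3, and Md and PA2 the lowest Erbb3 and Snai1. Snai1 had 24.0, 29.2 and 25.6 CPM in FNP, against 10.46, 8.16 and 8.33 CPM in Mx, 6.20, 6.17 and 6.87 CPM in Md and 4.38, 3.58 and 3.92 CPM in PA2. The groups formed 4 steps without overlap, and FNP was higher than the mean of the other 3 by 2.10 ± 0.12 on the log2 scale (SE, adjusted p = 2.04e-17). Erbb3 had 22.8, 29.6 and 22.6 CPM in FNP and 5.18 ± 1.60 CPM in the other 3 (SD, n = 9), with no overlap and a log2 fold change of 2.30 ± 0.15 (SE, adjusted p = 2.25e-16). Sox8 was again highest in FNP, with 15.7, 17.2 and 17.0 CPM there, against 6.30 ± 2.43 CPM in the other 3 (SD, n = 9), a log2 fold change of 1.5 ± 0.16 (SE, adjusted p = 5.78e-10). Foxd3 had 3 counts over the FNP libraries and 108 over the other 3 groups, a level 14.2-fold lower with a 95% counting interval of 4.74 to 70.1 that covers counting error only. Twist1 was 0.41 ± 0.15 higher in FNP (SE, adjusted p = 0.0351, up to 0.143 without single libraries), so 5 of 8 passed in FNP beside 24.6% of all genes. The Twist1 call was lost with DESeq2 (adjusted p = 0.0707), RLE (0.0677) and upper-quartile scaling (0.0713). Sox10 was not called in FNP, but was higher by 1.04 with Mx left out (adjusted p = 0.00419). It also passed without a filter (0.0142), with only the groups compared (0.00814) and without Md replicate 3 (0.0483). The border list was high in the same place, with 14 of 18 higher and 3 lower and a median log2 fold change of 1.66: Tfap2b, an AP-2 factor gene, averaged 304 ± 37.0 CPM in FNP (SD, n = 3) and 8.61 ± 6.21 CPM in the other 3 (SD, n = 9). Epithelial markers summed to 10.9 to 24.0 CPM in FNP and 6.36 to 12.02 CPM in the others, with 7 of 9 higher. Neuron markers were higher for 4 of 12 and lower for none in FNP, at 55.9 to 70.5 CPM in FNP and 10.1 to 65.3 CPM in the others, of which Mx held the most. The part of these markers in the Erbb3 and Snai1 levels was not tested.

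Mx of E11.5 had 4 of 8 genes called beside 11.3% of all genes. Snai2 had 148.8, 142 and 116 CPM in Mx and 72.6 ± 9.95 CPM in the other 3 (SD, n = 9), with every Mx library above every other and a log2 fold change of 0.91 ± 0.12 (SE, adjusted p = 1.06e-07). Foxd3 had 0.622, 0.799 and 0.420 CPM in Mx and between 0 and 0.466 CPM elsewhere, so that its lowest Mx library overlapped the others, with a log2 fold change of 2.49 ± 0.44 (SE, adjusted p = 4.83e-05). Sox10 was higher by only 0.82 ± 0.26 (SE, adjusted p = 0.0284, up to 0.0979 without single libraries), and Sox8 was lower by -1.44 ± 0.19 (SE, adjusted p = 3.19e-07). Neuron markers were higher for 4 of 12 and lower for none in Mx of E11.5, with sums of 56.2 to 65.3 CPM in Mx, against 55.9 to 70.5 CPM in FNP and 10.1 to 18.0 CPM in Md and PA2, and none of the 12 was at 0 in Mx. Cranial mesenchyme markers were higher for 8 of 10 and lower for 1 (3741 to 4202 CPM in Mx and 2974 to 3703 CPM in the other 3). The part of either in the Foxd3, Sox10 and Snai2 calls was not tested. Md and PA2 each had 3 of 8 genes lower and none higher, beside 2.94% and 8.27% of all genes lower. Foxd3 and Ets1 were above the other 3 in PA2 at 1.35 and 0.29 on the log2 scale, short of the threshold (adjusted p = 0.0529 and 0.0541). Both were called higher there by DESeq2 (adjusted p = 0.0218 and 0.0227), with RLE (0.0487 and 0.0262) and upper-quartile scaling (0.0418 and 0.0175), without a filter (0.0291 and 0.0341) and without FNP replicate 3 (0.0432 and 0.0185). Erbb3 was lower in Md by -1.29 ± 0.18 and in PA2 by -0.71 ± 0.17 (SE, adjusted p = 8.51e-07 and 0.0023). Snai1 was lower in Md by -0.61 ± 0.14 and in PA2 by -1.54 ± 0.16 (SE, adjusted p = 0.00344 and 1.63e-10). Sox10 was lower in Md by -1.40 ± 0.31 (SE, adjusted p = 0.00117), and Snai2 in PA2 by -0.55 ± 0.13 (SE, adjusted p = 0.0011), or -0.28 (adjusted p = 0.136) with Mx left out.

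A test of any difference among the 4 wild-type subpopulations (F over 3 contrasts) called 7 of 8 genes at E10.5, beside 27.0% of all genes, and 7 of 8 at E11.5, beside 29.4%. Twist1 missed the threshold at E10.5 (adjusted p = 0.0757, or 0.0395 with Mx left out and 0.0067 without a filter) and Ets1 at E11.5 (adjusted p = 0.058). Ets1 passed without a filter (0.0306) and with RLE (0.0334) or upper-quartile scaling (0.0295). It also passed without FNP replicate 3 (0.0367), Mx replicate 1 (0.0498) or PA2 replicate 2 (0.0404). The E10.5 calls of Foxd3 and Snai1 were lost with Mx left out (adjusted p = 0.302 and 0.0513), as was that of Snai2 at E11.5 (adjusted p = 0.202). Leaving out single libraries took Snai1 at E10.5 up to an adjusted p of 0.273 and Twist1 at E11.5 up to 0.0827. Snai1 at E10.5 also missed with RLE (adjusted p = 0.0605) and upper-quartile scaling (0.0659).

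The third comparison followed wild-type crest over 1 day, E11.5 against E10.5. Over the mean of the 4 subpopulations, Twist1, Snai2 and Ets1 rose and Sox10, Foxd3 and Snai1 fell, so 6 of 8 passed beside 63.8% of all genes. Twist1 lay between 219 and 369.9 CPM with a median of 278 in 12 libraries of E11.5 and between 89.3 and 165 CPM with a median of 127 in 11 libraries of E10.5. The stages did not overlap, and the log2 fold change was 1.21 ± 0.10 (SE, adjusted p = 4.82e-14). Snai2 lay between 58.1 and 148.8 CPM at E11.5 and between 24.4 and 68.6 CPM at E10.5, where 1 FNP library of E10.5 reached into the E11.5 range, with a log2 fold change of 1.00 ± 0.08 (SE, adjusted p = 3.48e-14). Ets1 rose by 0.43 ± 0.07 (SE, adjusted p = 9e-07) and Snai1 fell by 0.62 on the log2 scale (-0.62 ± 0.09, SE, adjusted p = 6.48e-08). Sox10 had a log2 fold change of -0.94 ± 0.18 (SE, adjusted p = 1.45e-05) that rested on Mx, being -0.19 (adjusted p = 0.461) with Mx left out. Foxd3 had -1.71 ± 0.33 (SE, adjusted p = 1.77e-05). Erbb3 did not pass at 0.18 ± 0.11 (SE, adjusted p = 0.169), but was 0.88 higher with Mx left out (adjusted p = 3.03e-07), and Sox8 did not pass at -0.06 ± 0.11 (SE, adjusted p = 0.653). Endothelial markers, where Ets1 is known to be active, were higher for 7 of 10 and lower for 1 over the same mean, with a median log2 fold change of 1.59, although their summed level was 42.3 to 95.6 CPM at E11.5 and 83.9 to 131 CPM at E10.5. Their part in the Ets1 rise was not tested.

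The change with stage itself differed between subpopulations (F over 3 contrasts) for 5 of 8 genes, beside 15.6% of all genes. The widest case was Erbb3 (adjusted p = 2.63e-10): its log2 fold change was -1.93 ± 0.22 in Mx and 1.57 ± 0.26 in Md, with 0.46 ± 0.19 in FNP and 0.61 ± 0.23 in PA2 (SE). Erbb3 had 5.06, 8.76 and 5.60 CPM in E11.5 Mx, against 26.8 and 22.6 CPM in E10.5 Mx, and in Md it had 4.61, 2.79 and 4.14 CPM at E11.5, against 1.15, 1.82 and 0.849 CPM at E10.5. Mx libraries of E11.5 were thus all lower, and Md libraries all higher, than those of E10.5. The Erbb3 rises in FNP (adjusted p = 0.0495) and PA2 (adjusted p = 0.0281) were not stable, reaching adjusted p of 0.238 and 0.156 when single libraries were left out. Snai1 (adjusted p = 1.55e-09) rose in FNP, by 0.87 ± 0.16, and fell in the other 3, with log2 fold changes of -0.79 ± 0.18 in Mx, -1.17 ± 0.17 in Md and -1.40 ± 0.18 in PA2 (SE). Snai1 of E10.5 had 15.03, 13.2 and 14.8 CPM in FNP and 9.09, 11.8 and 10.3 CPM in PA2, so that FNP and PA2 had moved apart in opposite directions by E11.5.

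Sox10 (adjusted p = 1.17e-07) had a far smaller Mx excess at E11.5. It had 2.88, 2.93 and 2.77 CPM in E11.5 Mx, against 30.8 and 21.8 CPM in E10.5 Mx, a log2 fold change of -3.20 ± 0.31 (SE, adjusted p = 6.31e-11), and by E11.5 the Mx libraries lay within the range of FNP. Sox10 also fell in PA2, with 2.05, 1.52 and 1.83 CPM at E11.5 and 4.66, 3.48 and 2.90 CPM at E10.5 (log2 fold change -1.03 ± 0.33, SE, adjusted p = 0.0107, or 0.0759 without E10.5 PA2 replicate 1). Foxd3 (adjusted p = 0.0261) fell in Mx by a log2 fold change of -2.10 ± 0.41 (SE, adjusted p = 6.62e-05). In FNP it had 3 counts at E11.5 and 35 at E10.5, a level 16.2-fold lower with a 95% counting interval of 5.11 to 82.4. Its test of a differing change was lost without any 1 of 6 libraries, at adjusted p of 0.0525 to 0.0675. Ets1 (adjusted p = 0.00425) had 46.5, 43.0 and 48.7 CPM in E11.5 Md, against 22.5, 23.6 and 24.0 CPM in E10.5 Md, a log2 fold change of 0.98 ± 0.14 (SE, adjusted p = 2.29e-07) with no overlap. In the same Md comparison 7 of 10 endothelial markers were higher and 1 lower, with sums of 70.8 to 81.2 CPM at E11.5 and 96.7 to 102 CPM at E10.5. In FNP and Mx the Ets1 change did not pass, at 0.12 (adjusted p = 0.494) and 0.30 (adjusted p = 0.109), and in PA2 it was 0.33 ± 0.13 (SE, adjusted p = 0.0482, up to 0.351 without single libraries).

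**Figure D4:**
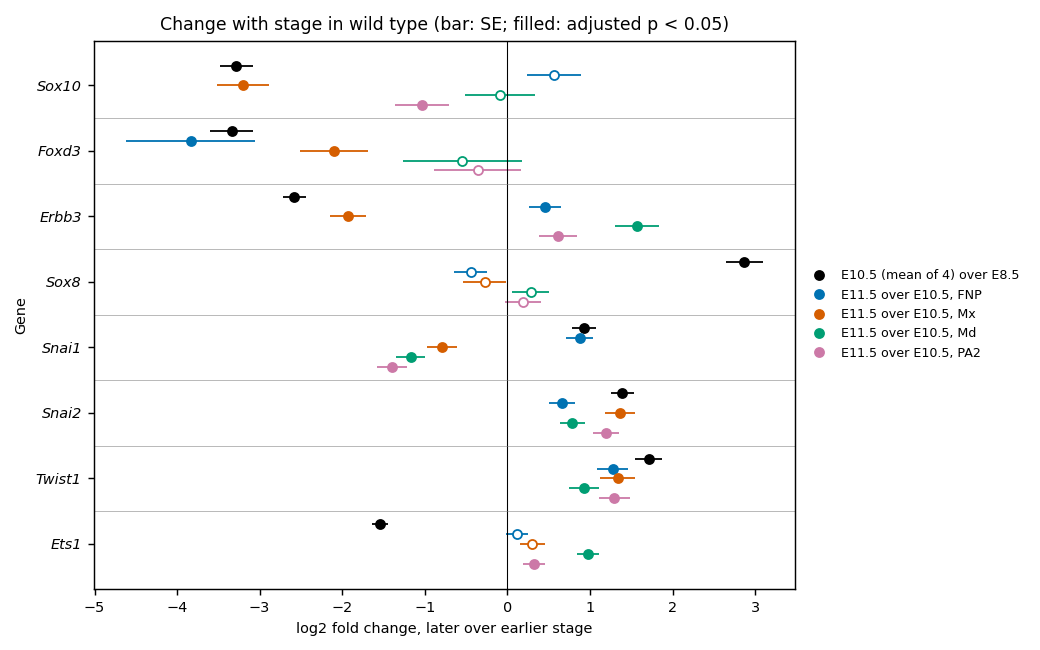
Log2 fold change with stage in wild type for each gene (bars, SE), with E10.5 over E8.5 in black and E11.5 over E10.5 in colour by subpopulation, and filled points at adjusted p under 0.05. Twist1 and Snai2 lie right of 0 in every step, while Erbb3 lies at -1.93 in Mx and 1.57 in Md and Snai1 right of 0 in FNP and left of it in Mx, Md and PA2 over the later step.

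Twist1 and Snai2 were called higher at E11.5 in every subpopulation. The Twist1 rise on the log2 scale was 1.34 ± 0.21 for Mx (SE, adjusted p = 3.26e-06), 1.29 ± 0.19 for PA2 (adjusted p = 4.76e-07), 1.27 ± 0.19 for FNP (adjusted p = 5.62e-07) and 0.93 ± 0.19 for Md (adjusted p = 9.91e-05). The Snai2 rise was 1.36 ± 0.18 for Mx (SE, adjusted p = 4.39e-08), 1.19 ± 0.16 for PA2 (adjusted p = 5.89e-08), 0.79 ± 0.15 for Md (adjusted p = 6.83e-05) and 0.66 ± 0.15 for FNP (adjusted p = 0.000501). A differing change was not called for Twist1 (adjusted p = 0.651), Snai2 (adjusted p = 0.0585) or Sox8 (adjusted p = 0.212). For Snai2 it was called without a filter on low counts (adjusted p = 0.0144), with upper-quartile scaling (adjusted p = 0.0399) and without any 1 of 6 libraries (adjusted p of 0.0176 to 0.0492). Sox8 in FNP had 15.7, 17.2 and 17.0 CPM at E11.5 and 17.6, 24.1 and 26.3 CPM at E10.5, all lower at E11.5 but short of the threshold, with a log2 fold change of -0.45 ± 0.20 (SE, adjusted p = 0.0727). That difference passed with DESeq2 (adjusted p = 0.0476), with only the groups compared in the fit (0.0218), with upper-quartile scaling (0.0442), with the replicate block (0.0476) and without E10.5 FNP replicate 1 (0.0286). By subpopulation, FNP had 5 of 8 genes called beside 42.6% of all genes, Mx 6 beside 38.3%, Md 5 beside 38.3% and PA2 6 beside 39.4%.

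The transition list rose with Twist1 and Snai2, with 15 of 18 genes higher and 2 lower over the mean of the subpopulations and a median log2 fold change of 0.68 against 0.03 over all genes. Vim, the mesenchymal intermediate filament gene, averaged 364 ± 109 CPM at E11.5 (SD, n = 12) and 98.7 ± 31.4 CPM at E10.5 (SD, n = 11), a log2 fold change of 1.85 ± 0.07 (SE). Zeb2, Twist2 and Mmp14, genes of a transition repressor, a Twist relative and a matrix protease, rose by 1.53, 0.97 and 0.96 on the log2 scale. The cranial mesenchyme markers, which share Twist2, Vim and Cdh11 with that list, were higher for 8 of 10 and lower for none, and their part in these rises was not tested. The glial list was split over the mean, with 6 higher and 5 lower, Pmp22 at 1.59 and Fabp7 at -1.65 on the log2 scale being its widest. Its summed level rose without overlap in FNP, Md and PA2 and fell in Mx. The sums at E10.5 and E11.5 were 189 to 229 and 264 to 297 CPM in FNP and 152 to 165 and 210 to 242 CPM in Md. They were 129 to 138 and 171 to 182 CPM in PA2, and 273 to 297 and 213 to 224 CPM in Mx. In Mx alone 9 of 20 glial genes fell and 2 rose, with a median log2 fold change of -0.42: Fabp7 averaged 2.54 ± 0.0731 CPM at E11.5 (SD, n = 3) and 34.6 ± 3.94 CPM at E10.5 (SD, n = 2), and Ednrb and Cdh19 had log2 fold changes of -1.71 and -1.65. Neuron markers fell in the same Mx comparison, 8 of 12 lower and 1 higher, with sums of 56.2 to 65.3 CPM at E11.5 against 158 to 185 CPM at E10.5, with none at 0 at E10.5. Their part in the falls of Sox10, Erbb3 and Foxd3 was not tested. Border regulators were mixed, with 7 higher and 7 lower, and 5 of 6 melanoblast genes were higher and 1 lower.

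Ezh2 encodes the catalytic subunit of Polycomb repressive complex PRC2, and the next comparison asked what its loss did at E10.5. None of the 8 genes was called over the mean of the 4 subpopulations (edgeR), although 30.8% of all genes were. Snai2 alone reached an unadjusted p under 0.05 there, a level at which the share of all genes is not given. DESeq2 also called 0. Other edgeR settings called Snai2 higher: no filter (log2 fold change 0.20, adjusted p = 0.0275), only the groups compared (0.20, 0.0403) and upper-quartile scaling (0.22, 0.0295). The 95% intervals of the log2 fold change ran from -0.13 to 0.56 for Sox10, from -0.57 to 0.52 for Foxd3, from -0.37 to 0.11 for Erbb3 and from -0.07 to 0.39 for Sox8. They ran from -0.33 to 0.02 for Snai1, from 0.01 to 0.33 for Snai2, from -0.25 to 0.14 for Twist1 and from -0.10 to 0.18 for Ets1. All 8 intervals thus lay between -0.57 and 0.56. With Mx left out, Sox10 was higher in Ezh2cKO by 0.56 (adjusted p = 0.0405), and without wild-type FNP replicate 1 Snai2 was higher by 0.24 (adjusted p = 0.00819).

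By subpopulation, the single call was Erbb3 in Mx, 1 of 8 genes beside 10.3% of all genes. Erbb3 had 15.8, 13.3 and 7.39 CPM in Ezh2cKO Mx, against 26.8 and 22.6 CPM in wild-type Mx. All 3 Ezh2cKO libraries were below both wild-type ones, with a log2 fold change of -1.02 ± 0.21 (SE, adjusted p = 0.000853). Sox10 had 15.9, 17.2 and 11.2 CPM in Ezh2cKO Mx, against 30.8 and 21.8 CPM in wild-type Mx, without overlap but short of the threshold (log2 fold change -0.84 ± 0.29, SE, adjusted p = 0.0586, but 0.0174 without a filter and 0.024 with only the groups compared). Foxd3 had 1.69, 2.06 and 1.73 CPM in Ezh2cKO Mx, against 3.0 and 2.33 CPM in wild-type Mx, a log2 fold change of -0.55 ± 0.38 (SE, adjusted p = 0.446). All 3 glial genes thus lay lower in Ezh2cKO Mx, and 1 of the 3 passed. In FNP, Md and PA2 no gene of the 8 was called, beside 6.80%, 8.87% and 9.17% of all genes. DESeq2 called Ets1 higher in FNP (log2 fold change 0.39, adjusted p = 0.0426), Sox10 higher in Md and no gene of the 8 in PA2. Ets1 in FNP also passed in edgeR with upper-quartile scaling (adjusted p = 0.0466). An unadjusted p under 0.05 was reached by 2 of the 8 in each. The share of all genes at that level is not given, so no result is read from these counts. Sox10 in Md had 1.85, 2.51 and 1.59 CPM in Ezh2cKO and 1.44, 0.784 and 0.584 CPM in wild type, no overlap, with a log2 fold change of 1.07 ± 0.40 (SE, adjusted p = 0.0962, but 0.0331 by DESeq2, 0.0196 without a filter, 0.0193 with only the groups compared and 0.0435 without wild-type Md replicate 1). Foxd3 in PA2 had 1.36, 0.990 and 0.689 CPM in Ezh2cKO and 0.543, 0.294 and 0.491 CPM in wild type, a log2 fold change of 1.2 ± 0.47 (SE, adjusted p = 0.106, but 0.0303 with only the groups compared).

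**Figure D5:**
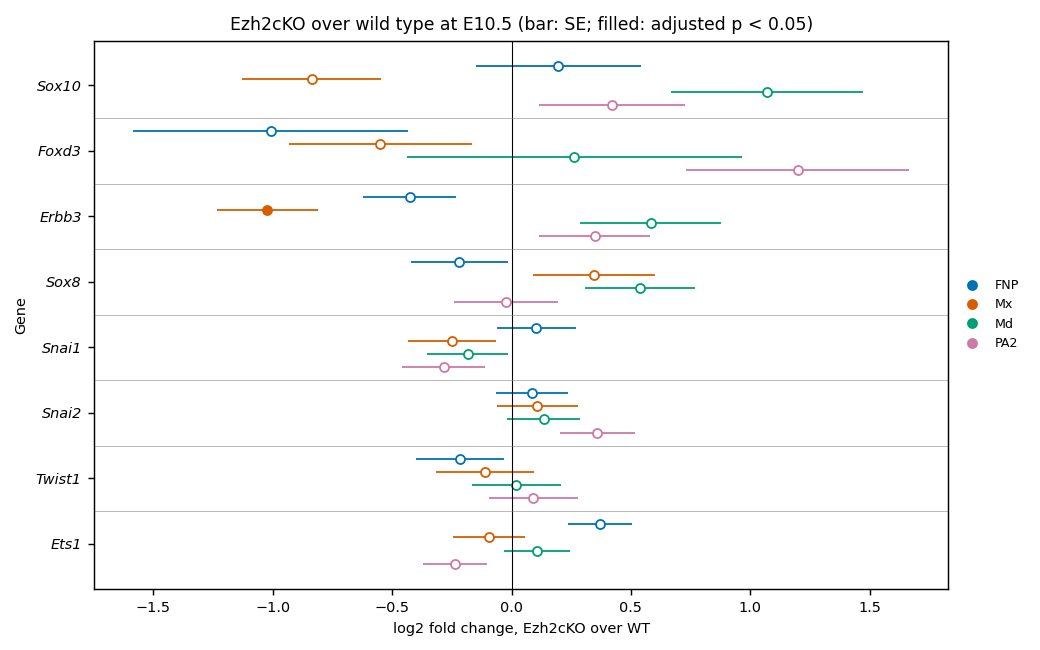
Log2 fold change of Ezh2cKO over wild type at E10.5 for each gene in FNP, Mx, Md and PA2 (bars, SE), with filled points at adjusted p under 0.05. Erbb3 in Mx, at -1.02, is the only filled point, and for Sox10 and Erbb3 the Mx point lies left of 0 and the Md and PA2 points right of it.

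The effect of Ezh2 loss differed between subpopulations (F over 3 contrasts) for Erbb3 (adjusted p = 0.0078), 1 of 8 genes beside 1.63% of all genes. Sox10 (adjusted p = 0.0994, but 0.00244 without a filter) and Foxd3 (adjusted p = 0.343) did not pass. The Erbb3 result rested on Mx, at adjusted p of 0.269 with Mx left out, and was at 0.0584 without wild-type Mx replicate 1. Neuron markers ran from 105 to 289 CPM in Ezh2cKO Mx and from 158 to 185 CPM in wild-type Mx, with 0 of 12 called in either direction and none at 0. The Ezh2cKO Mx library with the fewest neuron marker counts was the one with the lowest Erbb3 and Sox10, and the part of neurons in these values was not tested.

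Other genes around the 8 did move. Among border regulators 7 were higher and 6 lower over the mean of subpopulations: Zic2 averaged 8.46 ± 4.66 CPM in Ezh2cKO (SD, n = 12) and 0.323 ± 0.307 CPM in wild type (SD, n = 11), a log2 fold change of 5.85 ± 0.26 (SE), and Zic1 10.3 ± 5.59 CPM in Ezh2cKO and 0.666 ± 1.14 CPM in wild type. Gbx2 and Tfap2b rose by 1.60 and 0.98 on the log2 scale over the mean of log2 levels, though the plain means were 4.86 and 74.9 CPM in Ezh2cKO and 6.53 and 103 CPM in wild type. The glial list had 8 genes higher and 2 lower, with a median log2 fold change of 0.28 against -0.02 over all genes. In Mx it had 2 higher and 4 lower, and there Cdh19, Ednrb and Fabp7 had log2 fold changes of -1.19, -1.01 and -0.77, with Ednrb at 11.6 ± 3.69 CPM in Ezh2cKO (SD, n = 3) and 23.4 ± 0.662 CPM in wild type (SD, n = 2). The transition list was nearly still, with 3 of 18 higher and 1 lower. Neural tube markers were higher for 7 of 10 over the mean of subpopulations and neuron markers for 7 of 12, none lower in either list, and their part in the list counts was not tested.

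HoxA2OE puts Hoxa2, the selector gene of the second arch, into Md, where wild-type crest lacks it. Of the 8 genes 3 were called, beside 54.8% of all genes: Twist1 and Ets1 were higher and Sox10 was lower. Without HoxA2OE replicate 3, Foxd3 was also called lower and Snai2 higher (adjusted p = 0.0278 and 0.0133). Twist1 had 581, 223 and 236 CPM in HoxA2OE, against 128, 121 and 138 CPM in wild-type Md. All HoxA2OE libraries were above all wild-type ones, and the log2 fold change was 1.43 ± 0.19 (SE, adjusted p = 4.16e-08), or 0.82 (adjusted p = 7.07e-07) without HoxA2OE replicate 1. Ets1 had 30.5, 46.3 and 44.7 CPM in HoxA2OE and 22.5, 23.6 and 24.0 CPM in wild-type Md, again apart, with a log2 fold change of 0.79 ± 0.14 (SE, adjusted p = 5.4e-06). Sox10 had 0.0413, 0.0849 and 0.263 CPM in HoxA2OE, from 1, 3 and 10 counts, against 1.44, 0.784 and 0.584 CPM in wild-type Md, a log2 fold change of -2.71 ± 0.59 (SE, adjusted p = 0.000185), or -3.67 without HoxA2OE replicate 3. Foxd3 had 0, 1 and 4 counts in HoxA2OE and did not pass (adjusted p = 0.0684), and Erbb3, Sox8, Snai1 and Snai2 had log2 fold changes of -0.23, 0.40, 0.03 and 0.29 with adjusted p of 0.545, 0.134, 0.887 and 0.113. DESeq2 called Foxd3 lower (log2 fold change -1.94, adjusted p = 0.0387). Sox8 had 3.26, 7.72 and 8.77 CPM in HoxA2OE, against 5.48, 4.75 and 4.99 CPM in wild-type Md, and was called higher at 0.68 (adjusted p = 0.0037) without HoxA2OE replicate 1.

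The transition list had 9 genes higher and 4 lower in HoxA2OE, with a median log2 fold change of 0.49 against -0.07 over all genes, and Twist2 averaged 49.2 ± 8.16 CPM in HoxA2OE and 23.6 ± 0.631 CPM in wild-type Md (SD, n = 3 each). The glial list had 2 higher and 6 lower, and melanoblast genes 2 higher and none lower. Among 3 higher and 4 lower border regulators, Pax3 averaged 0.386 ± 0.248 CPM in HoxA2OE and 11.9 ± 1.56 CPM in wild-type Md (SD, n = 3 each), a log2 fold change of -4.90 ± 0.28 (SE), and Myc rose by 1.14 on the log2 scale. Cranial mesenchyme markers summed to 3135 to 3774 CPM in HoxA2OE and 2223 to 2340 CPM in wild-type Md (7 of 10 higher, 1 lower, none at 0). Erythroid markers summed to 10.9 to 13.8 CPM in HoxA2OE and 221 to 286 CPM in wild-type Md (7 of 8 lower), with Hba-a1 at 0 in both. Endothelial markers, where Ets1 is active, summed to 135 to 164 CPM in HoxA2OE and 96.7 to 102 CPM in wild-type Md (4 of 10 higher, none lower, none at 0). Neither the part of these cells nor that of the unusual composition of the HoxA2OE libraries in the Twist1, Ets1 and Sox10 values was tested.

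Hoxa2TempMut was compared with Control in E11.5 PA2, and no gene of the 8 was called by edgeR or by DESeq2, beside 0.623% of all genes. Of the 8, 2 had an unadjusted p under 0.05. The share of all genes at that level is not given, so no result is read from this count. Sox8 had 3.77, 4.43 and 4.71 CPM in Hoxa2TempMut, against 6.07, 6.39 and 7.02 CPM in Control, without overlap but with a log2 fold change of -0.59 ± 0.22 short of the threshold (SE, adjusted p = 0.427, but 0.0378 with only the groups compared). Erbb3 had 7.84, 7.61 and 9.61 CPM in Hoxa2TempMut, against 10.1, 10.9 and 12.2 CPM in Control (log2 fold change -0.40 ± 0.20, SE, adjusted p = 0.81). Twist1 averaged 139 ± 6.25 CPM in Hoxa2TempMut and 142 ± 4.21 CPM in Control (SD, n = 3 each), with a 95% interval of the log2 fold change of -0.40 to 0.34. Among the other lists, 4 border regulators were higher and none lower, among them Gbx2 at 18.6 ± 1.47 CPM in Hoxa2TempMut and 7.26 ± 1.21 CPM in Control (SD, n = 3 each). No glial, transition or melanoblast gene was called.

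Control itself differed from wild-type PA2 of the same stage in 3 of the 8 genes, beside 22.1% of all genes. Erbb3 had 10.1, 10.9 and 12.2 CPM in Control, against 5.50, 4.73 and 5.43 CPM in wild type, with no overlap and a log2 fold change of 1.08 ± 0.20 (SE, adjusted p = 0.000113). Twist1 had 145, 143 and 137 CPM in Control, against 219.9, 276 and 219 CPM in wild type, a log2 fold change of -0.75 ± 0.18 (SE, adjusted p = 0.00255). Ets1 had 27.9, 28.0 and 33.8 CPM in Control, against 64.1, 48.6 and 50.8 CPM in wild type, a log2 fold change of -0.87 ± 0.13 (SE, adjusted p = 5.9e-06), again with all Control libraries on 1 side. Sox8 was not called, though it lay at 6.07 to 7.02 CPM in Control and 8.61 to 9.69 CPM in wild type. It was called lower without a filter (log2 fold change -0.52, adjusted p = 0.0473) and with only the groups compared (-0.50, adjusted p = 0.00461). Wild-type PA2 of E10.5 had 89.3, 96.3 and 106 CPM of Twist1, so Control lay between both wild-type stages in this gene. Ets1 and Erbb3 did not follow it: wild-type PA2 of E10.5 averaged 43.5 CPM of Ets1 and 3.4 CPM of Erbb3. Control thus lay below both wild-type stages in Ets1 and above both in Erbb3. Egr2, a zinc-finger gene of glia and hindbrain, averaged 8.5 ± 3.62 CPM in Control and 1.45 ± 0.659 CPM in wild type (SD, n = 3 each), 1 of 3 glial genes higher and none lower. All 6 melanoblast genes tested were lower in Control, with a median log2 fold change of -1.84, while transition genes were split with 4 higher and 5 lower and border regulators with 5 higher and 2 lower. Markers of muscle (7 of 9 higher, 6.07 to 9.37 CPM in Control and 1.88 to 3.17 CPM in wild type), epithelium (5 of 9 higher, 13.04 to 17.0 CPM and 6.97 to 9.97 CPM) and neurons (5 of 12 higher, 18.9 to 19.6 CPM and 10.1 to 12.5 CPM) were also higher in Control, with none lower, and their part in the Erbb3 value was not tested.

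Over the 16 group means of log2 CPM, some of the genes moved alike. Sox10 and Foxd3 had a Pearson correlation of 0.85, Sox10 and Erbb3 0.71, and Foxd3 and Erbb3 0.45, while Snai2 and Twist1 had 0.84. Erbb3 and Ets1 had 0.49, and Sox8 and Twist1 0.45. Correlations of Sox10, Foxd3 and Erbb3 with Snai2 and Twist1 were negative. They included -0.74 for Foxd3 and Twist1, -0.63 for Sox10 and Twist1, -0.30 for Erbb3 and Twist1 and -0.07 for Erbb3 and Snai2. Snai1 and Snai2, which encode related repressors, had -0.06. Sox8 ran against Foxd3 at -0.59. These values describe 16 groups that share stages, libraries' depth and dissections, and carry no test.

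Among 10985 named genes with at least 5 CPM in their highest group, those whose pattern over the 16 groups was most like each member were found by the same measure. They were Phactr1 (0.92), Scg3 (0.92) and Trp53i11 (0.90) for Sox10, Brsk2 (0.91), Snap25 (0.88) and Pop1 (0.87) for Foxd3, and Slitrk2 (0.89), Srgap3 (0.88) and Sh3rf1 (0.87) for Erbb3. For Sox8 they were Dst (0.93), Utrn (0.91) and Sh3bp5 (0.91), and for Ets1 Arl6ip1 (0.88), Cap1 (0.85) and Map3k15 (0.85). Snai1 was most like Ppap2c (0.95), Arl2bp (0.94) and Tep1 (0.94), Snai2 most like Atp7a (0.95), Mark1 (0.95) and Ptpdc1 (0.94), and Twist1 most like Zfp637 (0.96), Phyh (0.95) and Ulk2 (0.95). The genes nearest to Snai1, Snai2 and Twist1 matched their patterns more closely than those nearest to Erbb3, Foxd3 and Ets1, and no shared role is drawn from this.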

How the data were processed

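RNA was measured in 47 libraries of sorted mouse cranial neural crest cells, each a sample of the labels. The authors deposited unnormalised read counts by gene, from unstranded ScriptSeq v2 libraries read as single ends of 50 bases, per the labels' protocols. Demultiplexing used bcl2fastq 2.17 and the build was GRCm38 (mm10), per the submitters' processing notes. Neither names the aligner, the counter or the annotation release. The 22 column names that appear more than 1 time held identical values and were used once, and no column of another sample was found. Depth per library was 18.8 to 49.8 M counts (M for 1e6), and floors of 3 counts and counting intervals cover counting error only.

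Genes were filtered with filterByExpr (minimum count 10, minimum total 15) and all libraries scaled by TMM and fitted in edgeR 4.0.16 (R 4.3.3) with 1 mean for each group and the quasi-likelihood test on 31 residual degrees of freedom. P-values were adjusted over the 20560 genes by the Benjamini-Hochberg method within each comparison, and 0.05 was the threshold. The standard error of a log2 fold change was taken from the F statistic. Averages over subpopulations are means of log2 levels, so a plain mean of CPM can differ from them in direction. The code was tested on simulated data. Alternatives were DESeq2 1.42.0, RLE and upper-quartile scaling, no filter, fits of only the groups compared, a replicate block, leaving out each library and, chosen after seeing the data, leaving out Mx.

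The 8 genes and the lists were chosen with earlier results of these data known. Named beside the 8 were Ezh2, Hoxa2, in a list up to 4 called genes of largest log2 fold change whose higher side reached 5 CPM, and the 3 genes most like each member. Marker genes of other cells were named from their lists as examples or for a level of 0, after their values were seen. Some genes of these lists are not reported here by name.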

Additional observations from a re-analysis of the deposited data

Results flagged for a closer look

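The stage change from E10.5 to E11.5 in wild type differed between FNP, Mx, Md and PA2 by an F test of the difference for 5 of the 8 genes (edgeR, adjusted p over all genes tested, beside 15.6% of all genes). The adjusted p was 2.63e-10 for Erbb3, 1.55e-09 for Snai1, 1.17e-07 for Sox10, 0.00425 for Ets1 and 0.0261 for Foxd3. The log2 fold changes of Erbb3 were 1.57 for Md, 0.61 for PA2, 0.46 for FNP and -1.93 for Mx, and those of Snai1 were 0.87 for FNP, -0.79 for Mx, -1.17 for Md and -1.40 for PA2. With Mx left out, these 5 genes still passed the test of a difference between FNP, Md and PA2.

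The effect of Ezh2cKO against wild type at E10.5 differed between subpopulations for Erbb3 alone of the 8 (adjusted p = 0.0078), with log2 fold changes of 0.58 for Md, 0.35 for PA2, -0.43 for FNP and -1.02 for Mx. With Mx left out, Erbb3 was at an adjusted p of 0.269.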

How the results depend on the processing

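No scaling moved the median of all genes by over 0.1 on the log2 scale. The limits are those of depth and number: Foxd3 lay under 1 CPM in most groups, Mx at E10.5 has 2 libraries, and every comparison that averages subpopulations carries the neuron markers of Mx. A p that misses the threshold here does not show that levels were equal.

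Counts of genes passing the test, out of the 8, changed by more than 1.5 times in all alternatives but the replicate block. They did so in 7 comparisons with fits of only the groups compared, 5 without a filter and 3 with DESeq2. Upper-quartile scaling moved 3, leaving out Mx 2 and RLE scaling 1. Apart from those given below, counts of all genes called stayed within 1.5 times. Fits of only the groups compared gave 5 in Md and 6 in PA2 of E11.5, 1 for the mean of Ezh2cKO, 2 each for Ezh2cKO Mx, Md and PA2, and 1 for Hoxa2TempMut. They also called 3026 of all genes in Ezh2cKO PA2, 6400 in HoxA2OE and 247 in Hoxa2TempMut, against 1885, 11277 and 128. Without a filter there were 6 in PA2 of E11.5, 1 for the Ezh2cKO mean, 2 in Ezh2cKO Mx, 1 in Ezh2cKO Md and 2 in the test of a differing Ezh2 effect. DESeq2 gave 5 in PA2 of E11.5 and 1 each in Ezh2cKO FNP and Md. RLE scaling gave 5 in PA2 of E11.5, and upper-quartile scaling gave 5 there and 1 each for the Ezh2cKO mean and FNP. With Mx left out there was 1 for the Ezh2cKO mean and 0 for the differing Ezh2 effect.

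Leaving out single libraries moved the number of all genes called between 870 and 1549 for Mx of E10.5, 3207 and 5353 for FNP of E11.5, 722 and 2029 for Ezh2cKO Mx, 1204 and 1580 for Ezh2cKO Md, 1229 and 1719 for Ezh2cKO PA2 and 75 and 130 for Hoxa2TempMut. Counts moved over 1.5 times without either library of Mx (E10.5), FNP replicate 3 (E11.5), either wild-type or the Ezh2cKO replicate 2 of Mx, Ezh2cKO replicate 1 or wild-type replicate 3 of Md, Ezh2cKO replicate 2 of PA2 and Control replicate 2. Of the 8, it moved the count between 3 and 5 in PA2 of E10.5, PA2 of E11.5 and HoxA2OE, and between 0 and 1 for the Ezh2cKO mean, Ezh2cKO Md and the differing Ezh2 effect. The libraries left out were any of PA2 or Mx replicate 1 for PA2 of E10.5, FNP replicate 3 for PA2 of E11.5, HoxA2OE replicate 3, wild-type FNP replicate 1 or Ezh2cKO Mx replicate 3 for the Ezh2cKO mean, wild-type Md replicate 1 for Ezh2cKO Md and wild-type Mx replicate 1 for the differing effect.

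Directions that turned were all of differences that had not passed the test. With Mx left out these were Sox8 over the stage mean (0.0090), at E10.5 Foxd3 in FNP (0.49) and PA2 (0.62) and Sox8 in PA2 (-0.42), at E11.5 Snai2 (0.23) and Ets1 (-0.060) in FNP, Foxd3 (0.44) and Snai2 (0.049) in Md and Sox10 (0.23) and Sox8 (-0.15) in PA2, and Foxd3 (0.15) and Erbb3 (0.17) for the Ezh2cKO mean. Upper-quartile scaling turned Ets1 in FNP of E11.5 (-0.012), Foxd3 for the Ezh2cKO mean (0.026), Sox8 in Ezh2cKO PA2 (0.016), Snai1 in HoxA2OE (-0.060) and Snai2 in Control (0.030). Without a filter Foxd3 for the Ezh2cKO mean was at 0.0029 and Sox8 in Ezh2cKO PA2 at 0.00076, and with only the groups compared Foxd3 for the Ezh2cKO mean was at 0.0073. The causes were not tested.

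Leaving out single libraries gave ranges that spanned 0 on the log2 scale for these differences, some of them also named above. Over stage these were -0.018 to 0.21 for Ets1 in FNP, -0.31 to 0.37 for Sox10 in Md and -0.67 to 0.068 for Foxd3 in PA2. Among subpopulations of E10.5 they were -0.070 to 0.13 for Snai2 in Md, -0.15 to 0.21 for Sox10 in PA2 and -0.11 to 0.086 for Sox8 in PA2. At E11.5 they were -0.063 to 0.10 for Ets1 in FNP, -0.084 to 0.11 for Snai1 in Mx, -0.075 to 0.014 for Ets1 in Md and -0.16 to 0.040 for Sox10 in PA2. For Ezh2cKO they were -0.19 to 0.074 for Foxd3 and -0.0021 to 0.062 for Ets1 in the mean, -0.019 to 0.46 for Sox10 and -0.062 to 0.36 for Snai2 in FNP, -0.22 to 0.039 for Ets1 in Mx, -0.21 to 0.52 for Foxd3 and -0.034 to 0.072 for Twist1 in Md and -0.10 to 0.096 for Sox8 in PA2. For HoxA2OE they were -0.42 to 0.13 for Erbb3 and -0.13 to 0.26 for Snai1, for Hoxa2TempMut -0.88 to 0.27 for Foxd3 and -0.12 to 0.20 for Snai1, and for Control -0.18 to 0.53 for Foxd3 and -0.10 to 0.053 for Snai2.

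Libraries of equal replicate number in the groups compared shared only a number: the correlation of their deviations over genes ran from -0.053 to 0.071 in 31 pairs. With the number as a replicate block, all 26 counts of genes called stayed within 1.5 times, Snai1 among subpopulations of E10.5 lost its call (adjusted p = 0.0559), Sox8 over stage in FNP (-0.43, adjusted p = 0.0476) and Ets1 in PA2 of E11.5 (0.29, adjusted p = 0.0493) gained one, and Sox8 in PA2 of E10.5 was at -0.022.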
